A study of Cricetiscus sungorus with 41 samples.

Results

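The 35 core autophagy genes described here are the rows of the count table whose symbols name the machinery that builds an autophagosome, from the ULK kinase to the lipidated ATG8 proteins, with the receptors SQSTM1 and NBR1 and the transcription factor TFEB. They were chosen by symbol, and all 35 are present among the 20220 symbols of the table. The RNA came from blood of wild-type Djungarian hamsters (Cricetiscus sungorus in the labels, a small rodent that enters spontaneous daily torpor when kept in a winter-like short photoperiod). The hypothermic (HT) animals, 18 in all, expressed torpor on the day of sampling, which means a body temperature below 32 °C for at least 30 minutes. The normothermic (NT) animals, also 18, were acclimated in the same way and were able to enter torpor, but did not do so on that day. Blood was taken at zeitgeber time (ZT, hours after lights on) 1 during torpor entry (5 HT, 6 NT), at ZT 4 at the nadir (5 HT, 4 NT), at ZT 7 during arousal (4 HT, 4 NT) and at ZT 16 after torpor (4 HT, 4 NT). These animals were 32 ± 4 weeks old. A further 5 hamsters had never expressed torpor, and their labels give no time point, sex or age. Each library came from 1 animal, so the spread within a group is that between animals.

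Autophagy delivers cytoplasm and organelles to the lysosome. The ULK kinase complex starts the process when nutrients or energy run short, and a class III phosphatidylinositol 3-kinase marks the membrane on which the autophagosome forms. Lipid transfer proteins and PI3P-binding WIPI proteins then let this membrane grow, and a ubiquitin-like conjugation system fixes ATG8 proteins (the LC3 and GABARAP families) to it. In blood the pathway is well known for its part in maturing red cells, which remove their mitochondria and ribosomes in this way. The RNA level of these genes is not a measure of autophagic flux, which was not measured.

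Libraries held 50153600 to 71662267 counts, of which haemoglobin genes took 73.7 to 93.8%, leaving 3291472 to 14562786 counts for all other genes. All 15 erythroid markers, all 7 B cell markers, 9 of 10 T cell markers and 8 of 9 NK cell markers had counts in all 41 libraries, and GNLY and GP1BB were at 0 in all of them. Labelled sex was uneven between the groups. The NT animals were all male at ZT04 and at ZT16 and the HT animals at ZT16 were all female, so that sex and torpor cannot be told apart at ZT16. UTY, a gene of the Y chromosome, had 8 counts in HT ZT07 replicate 1, labelled male, and 52 counts in HT ZT07 replicate 2, labelled female, against 15 to 71 in the other males and 0 to 8 in the other females with a label. The ZT07 results are therefore also given without both animals. Where sex is a covariate in the fits below, it is the labelled sex, also for both these animals. In the text below, levels are CPM (counts brought to a common library total by the TMM method over all 41 libraries), fold changes are log2 values of HT minus NT ± SE from edgeR's quasi-likelihood test, and adjusted p values are those of Benjamini and Hochberg over all genes tested, with a threshold of 0.05. Gene lengths were not at hand, so levels are compared between animals and never between genes.

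A minority of the core autophagy genes differed between HT and NT blood during arousal, and ATG3 alone at the nadir. Several of these calls were lost in other fits, as given below. At ZT07, 6 of the 34 members tested passed the test, with ATG3, ATG13, ATG2B, ATG2A and ATG16L1 higher and WIPI1 lower in HT animals. These are 17.6% of the members tested, where 10.4% of all 10787 genes tested passed (5.72% higher and 4.65% lower), and DESeq2 called 8 members and 15.4% of all genes. At ZT04 only ATG3 passed, higher in HT animals, where 0.447% of all genes did (0.286% higher). DESeq2 called 4 members there (4.66% of all genes), and edgeR's test called 6 in the fit of all 41 libraries (5.8% of all genes). At ZT01 none of the 34 passed the test of edgeR (0% of all genes) or of DESeq2 (0.114%), and 2 had an unadjusted p below 0.05 (7.68% of all genes). At ZT16 none passed edgeR's test (0.0187% of all genes), DESeq2 called 2 (0.776%), and 4 had an unadjusted p below 0.05 (7.18%). ATG12 fell below the filter on low counts in these 4 comparisons.

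Looser cut-offs, taken from the methods of the study, ask for an unadjusted p of 0.05 or less and for levels at least 25% apart. At ZT01 ATG3 and UVRAG were past them and higher in HT animals, where 7.24% of all genes were past them and 3.65% were higher. At ZT04 there were 7 higher and 2 lower, or 26.5% of the members, where the background was 15.2% (7.62% higher, 7.55% lower). At ZT07 9 were higher and 3 lower, or 35.3%, where the background was 27.2% (13.8% higher, 13.4% lower). At ZT16 4 were lower and none higher, or 11.8%, where the background was 6.95% (4.56% lower). The median log2 difference of the 34 members was 0.00, 0.04, 0.09 and 0.00 at the 4 times and that of all genes −0.01, −0.01, −0.04 and 0.01. The set as a whole was therefore close to the centre of all genes, and the differences lay in a minority of its members.

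HT and NT animals did not overlap for 8 members at ZT04 and for 8 at ZT07. At ZT04 every HT animal lay above every NT animal for ATG101, ATG13, ATG2A, ATG2B, ATG3 and ATG4A (4.02% of all genes) and below for ATG7 and PIK3R4 (3.35%). At ZT07 HT animals lay above NT animals for ATG101, ATG13, ATG16L1, ATG2A, ATG2B, ATG3 and ULK2 (10.8% of all genes) and below for WIPI1 (8.3%). At ZT16 they lay below for MAP1LC3B (1.85%), and at ZT01 neither order was met by any member (0.381% and 0.428% of all genes).

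**Figure D1:**
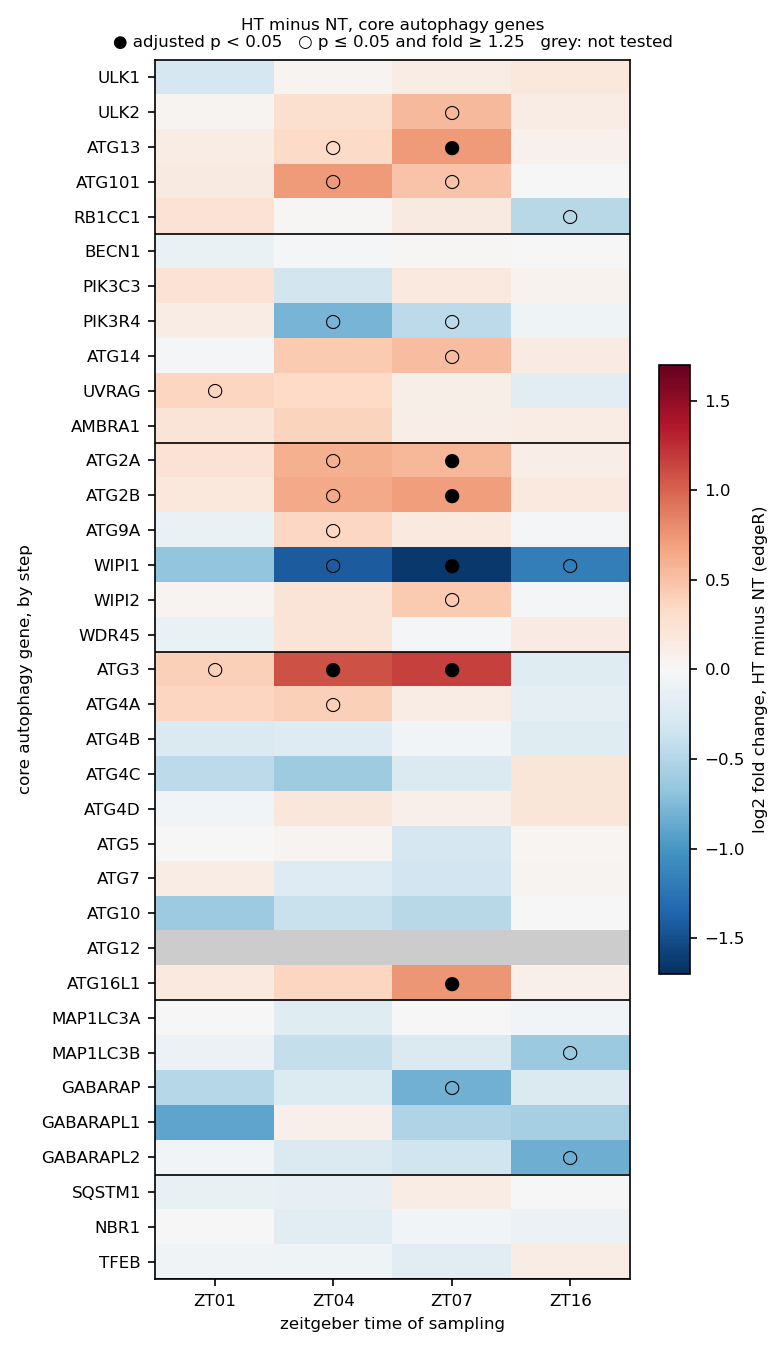
Log2 fold change of HT minus NT for each core autophagy gene (rows, in 6 blocks from the ULK complex to receptors and TFEB) at each zeitgeber time (columns). Red is higher in HT animals and blue lower, filled circles mark an adjusted p below 0.05, open circles the looser cut-offs, and grey was not tested. WIPI1 is blue at all 4 times, and the filled circles are the 1 call at ZT04 and the 6 calls at ZT07.

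The ULK complex (ULK1, ULK2, ATG13, ATG101 and RB1CC1) receives the signals of mTORC1 and AMPK. All 5 members had a positive log2 difference at ZT04 and at ZT07, with medians of 0.27 and 0.49, and 1 of them, ATG13, passed the test at ZT07. The lowest of the 5 differences was 0.02 at ZT04 and 0.12 at ZT07. Over all genes, 5180 of 10505 were above 0 at ZT04 and 5062 of 10787 at ZT07. ATG13 is the adaptor that carries the kinase and is a substrate of mTORC1. The 4 HT animals at ZT07 had 8.5, 10.6, 11.3 and 12 CPM of ATG13 and the 4 NT animals 5.37, 5.64, 6.71 and 7.42 CPM. Every HT animal lay above every NT animal, and the log2 fold change was 0.73 ± 0.16 (adjusted p = 0.0193). At ZT04 the HT values were 8.04, 8.95, 9.21, 9.77 and 10.1 CPM and the NT values 6.81, 6.97, 7.33 and 8.03 CPM, which touch without overlapping and gave 0.33 ± 0.15 (adjusted p = 0.317). At the other times the ranges overlapped, with HT animals at 6.61 to 8.77 CPM and NT animals at 5.92 to 7.7 CPM at ZT01, and 5.53 to 7.11 CPM in HT and 5.62 to 7.59 CPM in NT animals at ZT16.

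ATG101, which stabilises ATG13 in the complex, was measured at 3.28, 3.37, 3.71, 3.78 and 4.21 CPM in HT animals at ZT04 and at 1.18, 2.34, 2.66 and 2.68 CPM in NT animals. The groups did not overlap, yet the difference of 0.73 ± 0.23 did not pass the test over all genes (adjusted p = 0.157). It passed in the fit of all 41 libraries (0.74, adjusted p = 0.00951). With sex as a covariate in the fit of the 36 HT and NT libraries it passed too (0.72, adjusted p = 0.027). ATG101 did not pass at ZT04 with sex as a covariate in the fit of 2 groups (0.7, adjusted p = 0.61). Nor did it with DESeq2 (adjusted p = 0.066) or limma voom (0.111). At ZT07 its HT values of 2.93, 3.56, 4.15 and 4.22 CPM again lay above the NT values of 2.48, 2.51, 2.73 and 2.75 CPM, with 0.49 ± 0.15 (adjusted p = 0.0636). The 5 HT animals at ZT01 were close together, at 2.68 to 2.86 CPM, within the NT range of 1.81 to 3.23 CPM. ULK2, 1 of the kinase's paralogs, had 0.55 ± 0.16 at ZT07 (adjusted p = 0.0538), again with every HT animal (4.34 to 6.08 CPM) above every NT animal (2.86 to 4.1 CPM). RB1CC1 (FIP200), the scaffold of the complex, met the looser cut-offs only at ZT16, at −0.47 ± 0.16. ULK1 met them at no time.

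The phosphatidylinositol 3-kinase complex (BECN1, PIK3C3, PIK3R4, ATG14, UVRAG and AMBRA1) had no member past the test in the fits of 2 groups. PIK3R4 (VPS15), the regulatory subunit that anchors the lipid kinase, had the lowest p of this step at ZT04. Its HT values there were 0.941, 1.13, 1.14, 1.57 and 1.66 CPM and its NT values 1.87, 2.22, 2.32 and 2.43 CPM. All HT animals lay below all NT animals, at a log2 fold change of −0.79 ± 0.23 (adjusted p = 0.126, and 0.0359 with DESeq2). In the fit of all 41 libraries it passed edgeR's test (−0.78, adjusted p = 0.0222). In that of the 36 HT and NT libraries with sex as a covariate it did not (−0.79, adjusted p = 0.0644). Nor did PIK3R4 pass with limma voom (adjusted p = 0.0614) or with sex as a covariate in the fit of 2 groups (0.61). At ZT07 the groups overlapped, with 1.32, 1.39, 1.59 and 1.92 CPM in HT animals and 1.77, 1.95, 2.03 and 2.58 CPM in NT animals (−0.44 ± 0.19). At ZT01 and ZT16 the PIK3R4 ranges of HT animals (1.47 to 2.66 CPM and 1.17 to 2.46 CPM) and of NT animals (1.39 to 2.29 CPM and 1.61 to 2.63 CPM) overlapped widely. The catalytic subunit PIK3C3 met the looser cut-offs at no time. ATG14, the subunit that directs the kinase to the forming autophagosome, met them at ZT07 with 0.52 ± 0.20, and UVRAG, which replaces ATG14 in the endosomal form of the complex, at ZT01 with 0.37 ± 0.16. BECN1 was among the members with the narrowest spread, at 12.6 to 21.1 CPM or 1.67-fold over all 41 libraries.

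The next step (ATG2A, ATG2B, ATG9A, WIPI1, WIPI2 and WDR45) supplies lipid to the growing membrane and reads its PI3P. Of these 6, ATG2A and ATG2B were higher and WIPI1 lower in HT animals at ZT07. ATG2A and ATG2B encode the bridge-like proteins that move lipid into the growing membrane. ATG2A was measured at 15.7, 16.4, 16.9 and 19.9 CPM in HT animals at ZT07 and at 9.85, 11.4, 12.2 and 12.6 CPM in NT animals (0.56 ± 0.14, adjusted p = 0.0307). At ZT04 the HT values of ATG2A were 14.2, 14.4, 14.4, 15.3 and 18.4 CPM, again above all NT values of 9.09, 9.26, 10.5 and 11 CPM, with 0.61 ± 0.16 (adjusted p = 0.103, and 0.00553 with DESeq2). In the fits of 2 groups ATG2A was past edgeR's threshold at ZT07 alone. At ZT04 it passed in the fit of all 41 libraries (0.62, adjusted p = 0.00242). It also passed there in the fit of the 36 HT and NT libraries with sex as a covariate (0.65, adjusted p = 0.00852). ATG2A did not pass at ZT04 with sex as a covariate in the fit of 2 groups (0.56, adjusted p = 0.565). Nor did it with limma voom (0.54, adjusted p = 0.062). At ZT01 4 of the 5 HT animals had 11.2 to 11.6 CPM and HT ZT01 replicate 1 had 16.9 CPM, where the NT range was 8.85 to 12.2 CPM. At ZT16 the ATG2A levels were 9.93 to 12.4 CPM in HT and 9.7 to 11.1 CPM in NT animals.

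ATG2B showed the same order of groups. Its HT values at ZT07 were 3.54, 4.15, 4.17 and 5.94 CPM and its NT values 2.39, 2.5, 2.81 and 3.01 CPM, giving 0.71 ± 0.17 (adjusted p = 0.0267). At ZT04 the HT animals had 2.83, 3.03, 3.19, 4.0 and 4.84 CPM and the NT animals 1.44, 2.11, 2.66 and 2.77 CPM (0.64 ± 0.24, adjusted p = 0.22). The ATG2B ranges overlapped at ZT01 (2.16 to 3.37 CPM in HT, 1.86 to 2.86 CPM in NT animals) and at ZT16 (2.4 to 3.04 CPM and 1.82 to 3.31 CPM). ATG9A, the scramblase carried by the vesicles that seed the membrane, met the looser cut-offs at ZT04 with 0.35 ± 0.16.

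WIPI1, a PI3P-binding protein, differed in the other direction and by more than any other member at ZT07. The 4 HT animals had 1.19, 1.19, 1.26 and 1.39 CPM and the 4 NT animals 2.73, 3.03, 3.82 and 5.86 CPM. The log2 fold change was −1.64 ± 0.24 (adjusted p = 0.00459), with a narrow HT group that lay wholly below the NT group. At ZT04 the HT animals had 1.13, 1.62, 1.86, 1.99 and 3.74 CPM and the NT animals 2.9, 4.34, 5.35 and 9.63 CPM. HT ZT04 replicate 4 overlapped the NT group there, and the difference was −1.42 ± 0.36 (adjusted p = 0.0899, and 0.0118 with DESeq2). It did not pass with all 41 libraries in the fit (adjusted p = 0.114) or with 36 libraries and sex (0.111). Nor did it with sex as a covariate in the fit of 2 groups (0.482). WIPI1 varied widely among animals that were not in torpor. At ZT01 the 6 NT animals ran from 2.18 over a median of 2.57 to 11.9 CPM, at ZT16 the NT animals had 1.67, 3.6, 11 and 11.8 CPM, and the never-torpor controls 2.21, 2.27, 2.78, 5.56 and 9.76 CPM. HT animals at ZT01 (1.56 to 4.34 CPM) and at ZT16 (1.53 to 4.45 CPM, −1.18 ± 0.50, adjusted p = 0.66) overlapped the NT animals of their time. Its close relative WIPI2, which recruits ATG16L1 to the membrane, was at 0.45 ± 0.16 at ZT07 (adjusted p = 0.0856). WDR45 met the looser cut-offs at no time.

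**Figure D2:**
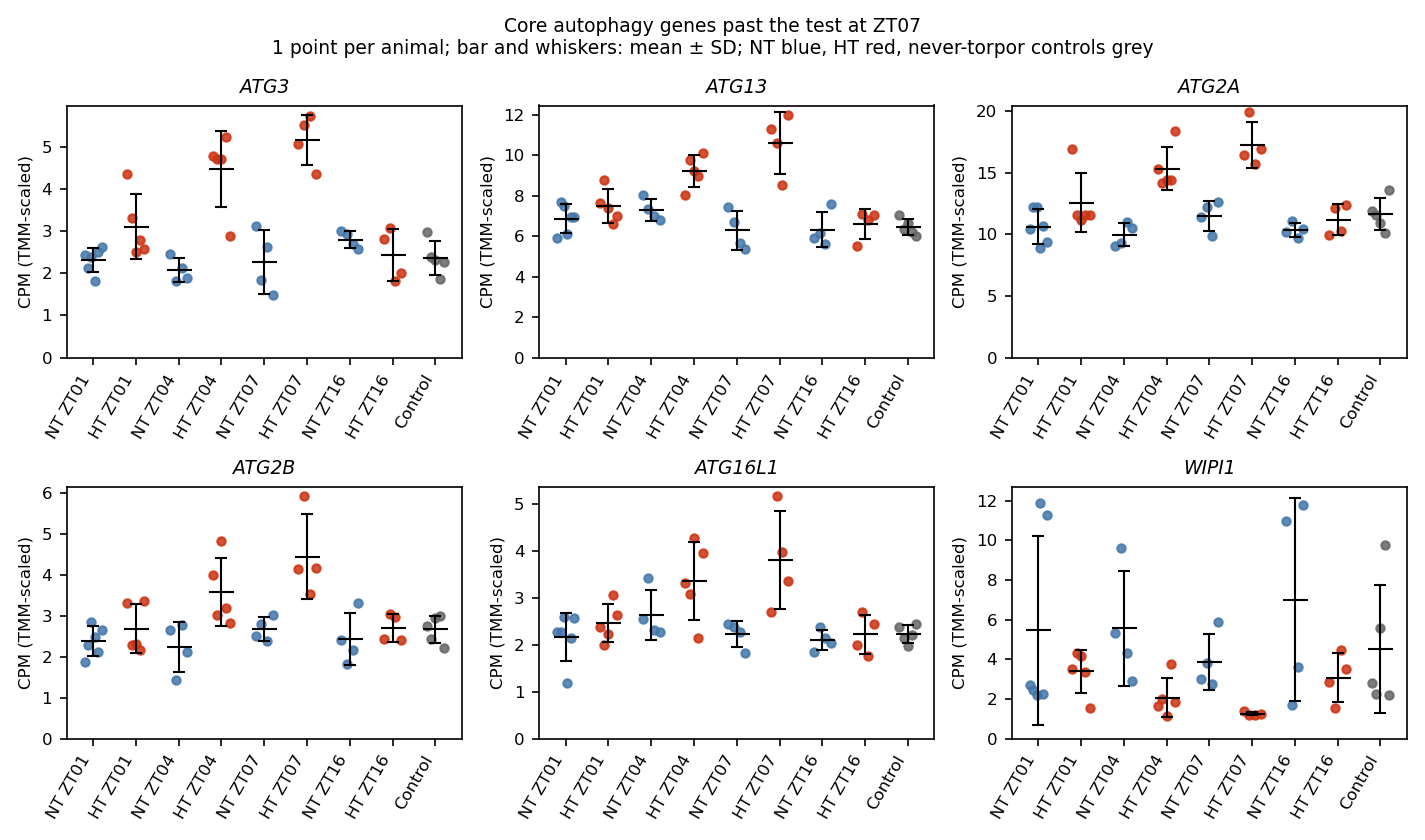
TMM-scaled CPM (vertical axes, from 0) of the 6 members past the test at ZT07 in each of the 9 groups, with 1 point per animal and bars at the mean ± SD (NT blue, HT red, never-torpor controls grey). At ZT07 the red and blue points do not overlap in any of the 6 panels, with red above blue in all but WIPI1.

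The conjugation enzymes (ATG3, ATG4A, ATG4B, ATG4C, ATG4D, ATG5, ATG7, ATG10, ATG12 and ATG16L1) attach ATG8 proteins to phosphatidylethanolamine. ATG3, the E2 enzyme that carries out this last transfer, was the only member past the test at both ZT04 and ZT07 in the fits of 2 groups. At ZT04 the HT animals had 2.9, 4.72, 4.73, 4.8 and 5.25 CPM and the NT animals 1.82, 1.9, 2.14 and 2.47 CPM, so that even the lowest HT animal, replicate 5, lay above the NT group. This was 1.08 ± 0.21, or 2.12-fold (adjusted p = 0.0459). At ZT07 the ATG3 values were 4.37, 5.07, 5.52 and 5.74 CPM in HT animals and 1.48, 1.84, 2.64 and 3.14 CPM in NT animals, at 1.16 ± 0.22 or 2.24-fold (adjusted p = 0.0118). At ZT01 the HT animals had 2.52, 2.58, 2.8, 3.31 and 4.37 CPM and overlapped the NT animals, which ran from 1.83 over a median of 2.41 to 2.64 CPM (0.40 ± 0.17, adjusted p = 0.642). By ZT16 the ATG3 levels of HT animals were 1.83, 2.01, 2.83 and 3.09 CPM, near the NT values of 2.59, 2.69, 2.93 and 3.02 CPM, and the never-torpor controls had 1.86, 2.28, 2.31, 2.39 and 2.99 CPM.

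The call of ATG3 at ZT04 rests on a small margin. It was lost with sex as a covariate (1.18, adjusted p = 0.216) and among males alone (1.18, adjusted p = 0.271). All 4 NT animals were male, so in both fits the difference rests on the same 2 HT and 4 NT males. The call was also lost when any 1 animal other than HT ZT04 replicate 5 was left out (fold changes 1.03 to 1.21, adjusted p up to 0.136). It was kept with DESeq2 (adjusted p = 0.000643) and by edgeR's test in the fits of all 41 libraries (0.000743) and of the 36 HT and NT libraries with sex as a covariate (0.000837). At ZT07 ATG3 and WIPI1 passed whichever 1 animal was left out. Without both animals whose UTY counts go against their labels no member passed, ATG3 being at 1.14 (adjusted p = 0.112) and WIPI1 at −1.67 (adjusted p = 0.0737), a choice made after the data were seen that leaves 2 HT animals. The other 4 calls at ZT07 were each lost when certain single animals were left out. Leaving out HT ZT07 replicate 2, HT ZT07 replicate 4 or NT ZT07 replicate 3 left 2 calls, and leaving out NT ZT07 replicate 1 or 2 left 3.

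ATG16L1, which brings the ATG12 and ATG5 conjugate to the membrane, was the second enzyme of this step past the test. At ZT07 its HT values were 2.71, 3.37, 3.98 and 5.18 CPM and its NT values 1.82, 2.28, 2.37 and 2.45 CPM, at 0.75 ± 0.20 (adjusted p = 0.0379). At ZT04 the ATG16L1 values overlapped, with 2.14, 3.08, 3.32, 3.97 and 4.27 CPM in HT and 2.28, 2.31, 2.56 and 3.42 CPM in NT animals. At ZT01 the HT animals had 1.99 to 3.07 CPM and the NT animals 1.19 to 2.59 CPM, and at ZT16 the ranges were 1.77 to 2.7 CPM and 1.85 to 2.38 CPM. ATG7, the E1 enzyme that activates both ATG12 and the ATG8 proteins, met the looser cut-offs at no time, although its 5 HT animals at ZT04 (1.18 to 1.48 CPM) lay at or just below its 4 NT animals (1.48 to 1.67 CPM). ATG4A, 1 of 4 proteases that prime and recycle ATG8 proteins, was at 0.40 ± 0.17 at ZT04 (adjusted p = 0.297). ATG4B, ATG4C, ATG4D, ATG5 and ATG10 met the looser cut-offs at no time.

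ATG12, the ubiquitin-like protein that is joined to ATG5, had only 287 counts over the 41 libraries and was at 0 in 5 of them. The raw counts were 2, 8, 15, 18 and 21 in HT animals at ZT04 against 0, 0, 1 and 2 in NT animals, and 8, 8, 14 and 23 against 0, 2, 2 and 16 at ZT07. At ZT16 HT animals had 0, 1, 1 and 4 counts. In the fit of all 41 libraries its level varied over time in HT animals (adjusted p = 0.0396), and this call was lost in 9 of the 41 fits that left out 1 animal, with adjusted p values up to 0.135. In all genes, 67.45% of the counts from 1 to 49 were even, so counts this small may not each stand for a separate fragment.

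The ATG8 proteins themselves (MAP1LC3A, MAP1LC3B, GABARAP, GABARAPL1 and GABARAPL2) had no member past edgeR's test. The median log2 difference of the 5 was −0.10, −0.23, −0.34 and −0.56 at ZT01, ZT04, ZT07 and ZT16. At ZT16 all 5 were below 0, where 5165 of 10705 genes were. MAP1LC3B, which encodes the LC3 protein most used to follow autophagosomes, was at 28.4, 30.5, 37.6 and 38.4 CPM in HT animals at ZT16 and at 38.9, 52.7, 52.7 and 65.7 CPM in NT animals. The groups did not overlap, at −0.63 ± 0.17 (adjusted p = 0.516, and 0.0216 with DESeq2), and here torpor and sex cannot be told apart. At the earlier times the ranges of MAP1LC3B overlapped, with 34.2 to 51.3, 22.2 to 56.3 and 27.6 to 42.5 CPM in HT animals at ZT01, ZT04 and ZT07 and 32.0 to 89.6, 35.1 to 86.3 and 33.1 to 43.4 CPM in NT animals. GABARAPL2 was at −0.83 ± 0.24 at ZT16 (adjusted p = 0.521, and 0.0313 with DESeq2), with 69.3, 102, 122 and 128 CPM in HT and 111, 198, 219 and 222 CPM in NT animals. GABARAP was at −0.82 ± 0.26 at ZT07 (adjusted p = 0.0658, 0.0291 with DESeq2 and 0.0336 with limma voom), with 4.96, 7.58, 8.73 and 12.9 CPM in HT and 12.3, 13.3, 14.3 and 19.8 CPM in NT animals. GABARAPL1, at 8 to 75 counts per library, and MAP1LC3A met the looser cut-offs at no time. Symbols were given to assembled contigs by their best human protein match, so reads of such close relatives may be divided between their symbols in ways that cannot be traced here.

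**Figure D3:**
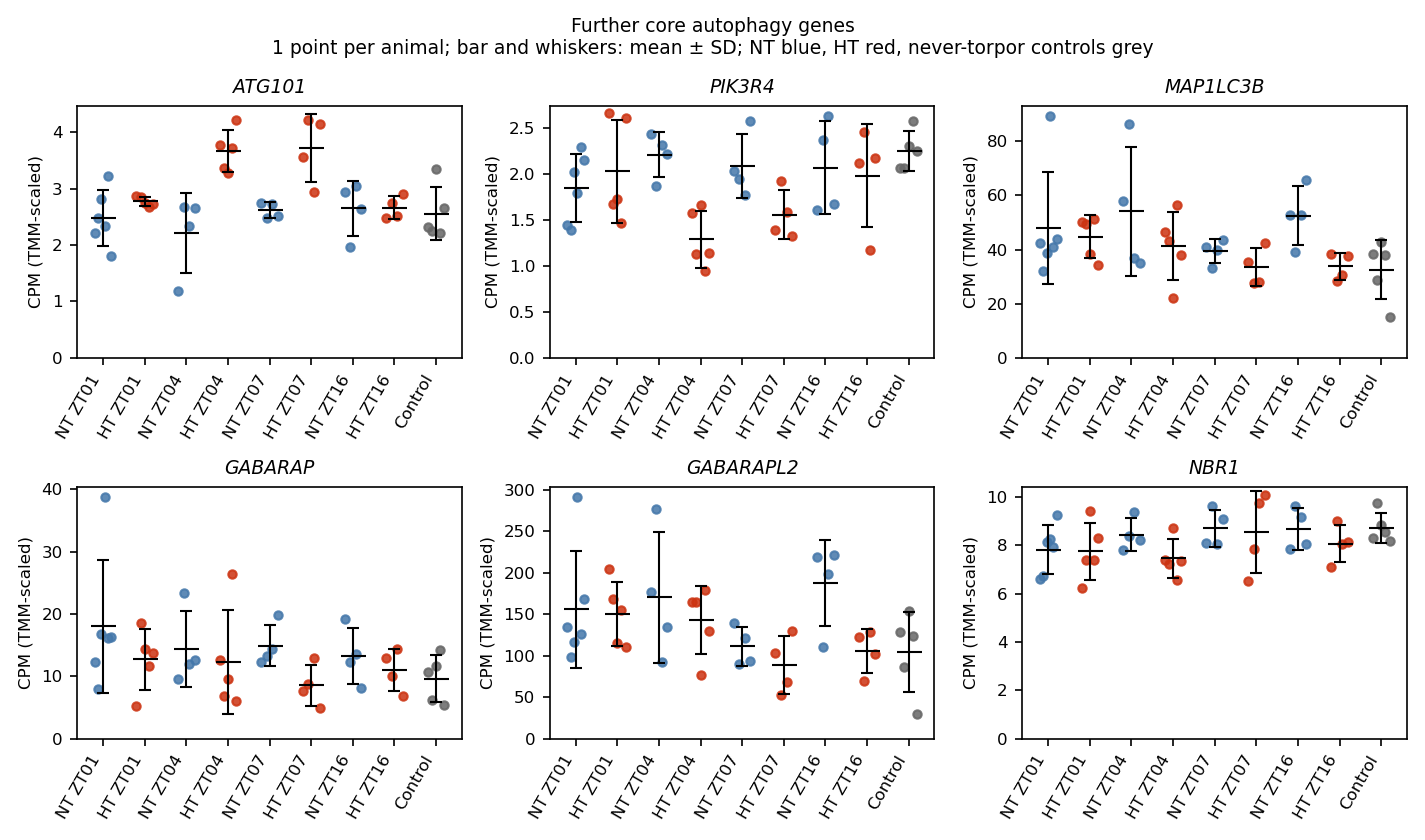
TMM-scaled CPM (vertical axes, from 0) of ATG101, PIK3R4, MAP1LC3B, GABARAP, GABARAPL2 and NBR1 in each of the 9 groups, with 1 point per animal and bars at the mean ± SD (NT blue, HT red, never-torpor controls grey). HT and NT animals are apart for ATG101 at ZT04 and ZT07, for PIK3R4 at ZT04 and for MAP1LC3B at ZT16, and single NT animals reach the highest MAP1LC3B and GABARAPL2 levels.

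The cargo receptors SQSTM1 (p62) and NBR1 and the transcription factor TFEB, a regulator of lysosome and autophagy genes, met neither threshold at any time. NBR1, with the lowest p of the 3 at ZT04, was at 6.56, 7.24, 7.33, 7.41 and 8.73 CPM in HT animals and at 7.8, 8.2, 8.4 and 9.38 CPM in NT animals. The lowest and highest levels of NBR1 over all 41 libraries, 6.25 and 10.1 CPM, differed by 1.62-fold, the smallest such ratio among the members. At the other times the NBR1 ranges were 6.25 to 9.43, 6.5 to 10.1 and 7.12 to 8.99 CPM in HT animals and 6.62 to 9.27, 8.07 to 9.61 and 7.83 to 9.61 CPM in NT animals. SQSTM1 ran from 10.4 to 19.4 CPM and TFEB from 2.39 to 7.38 CPM over all libraries.

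Among the HT groups, which hold different animals at each time, the levels of 6 members differed between time points. This was tested in 1 fit of all 41 libraries. Labelled males were 2 of 5 HT animals at ZT01 and at ZT04, 1 of 4 at ZT07 and 0 of 4 at ZT16, so time and sex were mixed. ATG3 (adjusted p = 0.000429), ATG13 (0.000614), ATG2A (0.00315), ATG16L1 (0.00991), ATG2B (0.0126) and ATG12 (0.0396) passed edgeR's test among the HT groups, or 17.1% of the 35 members, where 12.4% of all genes did, and DESeq2 called 9 members and 16.5% of all genes. Relative to HT animals at ZT04, ATG3 was at −0.53 at ZT01, 0.21 at ZT07 and −0.87 at ZT16 on the log2 scale. ATG13 was at −0.30, 0.20 and −0.48, ATG2A at −0.29, 0.16 and −0.46, and ATG2B at −0.41, 0.31 and −0.40. ATG16L1 was at −0.45, 0.18 and −0.60. For these 5 genes the HT level was thus higher at ZT04 and ZT07 than at ZT01 and ZT16. Without HT ZT07 replicate 2 only 3 of the 6 passed. With labelled sex as a covariate in the fit of the 36 HT and NT libraries 6 members passed, with ATG14 in place of ATG12. In that fit 9.34% of all genes passed. Among NT animals no member passed the test for time of edgeR (0.00859% of all genes) or of DESeq2 (0.0688%), and 1, ATG12, had an unadjusted p below 0.05 (6.37% of all genes).

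The torpor effect itself, HT minus NT, differed between time points for ATG3 alone among the 35 members (adjusted p = 0.00757), where 1.86% of all genes did. Its effect was lower at ZT01 than at ZT04 by −0.68 ± 0.26, lower at ZT16 by −1.30 ± 0.28, and at ZT07 the difference from ZT04 was 0.09 ± 0.28. With sex as a covariate in the fit of the 36 HT and NT libraries the call was lost (adjusted p = 0.0601). ATG13 (adjusted p = 0.0617) and ATG12 (0.0825) came next, and DESeq2 called ATG3, ATG13 and ATG12, with 4.56% of all genes. An effect past the threshold at ZT07 and not at ZT04 is not shown to differ between these times for the other members.

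The 5 never-torpor controls did not differ from the mean of the NT groups at the threshold for any member, in edgeR (2.15% of all genes) or in DESeq2 (2.86%). An unadjusted p below 0.05 was found for 3 members (9.71% of all genes), all ATG8 genes and all lower in the controls. The same 3, or 8.57% of the members, met the looser cut-offs, where 8.06% of all genes did (5.81% lower). These were MAP1LC3B at −0.56 ± 0.21 (15.1, 28.6, 38.1, 38.2 and 42.9 CPM), GABARAP at −0.65 ± 0.31 and GABARAPL2 at −0.55 ± 0.27. Control replicate 5 had the lowest level of all 41 libraries for MAP1LC3B and for GABARAPL2. It also had the lowest haemoglobin share (73.7%), the highest TMM factor (3.73) and the lowest summed level of erythroid markers (3950 CPM). Without this animal the difference of GABARAPL2 was −0.30. In the same comparison 14 of the 15 erythroid markers (median −0.50) and all 6 haemoglobin genes tested (median −0.88, with 2 past the test) were below 0, and 9 of the 10 neutrophil markers tested were above 0, 6 of them past the looser cut-offs. The part of these shifts in the differences of the ATG8 genes was not tested. ATG3, ATG13, ATG2A, ATG2B and ATG16L1 in the controls lay at 1.86 to 2.99, 6.02 to 7.05, 10.1 to 13.6, 2.22 to 2.99 and 1.97 to 2.44 CPM. These levels lie below every HT animal at ZT07.

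Members also varied among animals of 1 group, and several did so together with the level of erythroid markers. The biological coefficient of variation (the relative spread between animals that counting error does not account for) had a median of 0.188 over the members and 0.255 over all genes. It was lowest for ATG13 (0.128), WIPI2 (0.134) and NBR1 (0.136) and highest for ATG12 (0.688), GABARAPL1 (0.533), WIPI1 (0.52) and GABARAP (0.402). The summed level of the 15 erythroid markers, such as ALAS2 and SLC4A1, ran from 3950 to 35300 CPM over the 41 libraries. Each member's log2(CPM + 0.1), taken as the deviation from its group mean, was set against the same deviation of that sum. This was done for all 35 members after the values had been seen, with 100000 permutations within groups. In this test 7 members were positively and 1 negatively related at an adjusted p below 0.05, and 27 were not past the threshold.

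GABARAPL2 (Pearson's r = 0.93, Spearman's rho = 0.89) and MAP1LC3B (r = 0.92, rho = 0.89) followed the erythroid markers most closely, and MAP1LC3A came next (r = 0.82, rho = 0.76). The adjusted permutation p was 0.000117 for each of these 3 by r and by rho, from the smallest p the permutations can give, 1e-05. An r at least that of GABARAPL2, MAP1LC3B or MAP1LC3A was found in 0.0774%, 0.103% and 0.68% of 11621 genes. These genes leave out the erythroid markers and include the members themselves. Without control replicate 5 and NT ZT04 replicate 2, the libraries farthest out, their r was 0.90, 0.89 and 0.75. ATG4B had r = 0.68 (rho = 0.61, adjusted permutation p = 0.00112 and 0.00301) and WIPI1 r = 0.60 (rho = 0.63, adjusted permutation p = 0.0007 and 0.000525), or 0.61 and 0.59 without these libraries. GABARAP (r = 0.48, rho = 0.44) and ULK1 (r = 0.42, rho = 0.41) passed by r (adjusted permutation p = 0.0311 and 0.0463) and not by rho (0.0555 for both). ATG2A was negatively related (r = −0.46, rho = −0.47, adjusted permutation p = 0.0275 and 0.0283, and r = −0.40 without the 2 libraries). ATG3 had r = 0.00 and ATG13 r = 0.01 on this scale.

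The scaling bears on these relations, since the erythroid sum and each member share the factor of their library. That TMM factor was itself related to the erythroid sum at r = −0.95. With CPM taken over the counts outside haemoglobin and no TMM scaling, a choice made after the data were seen, GABARAPL2 (r = 0.85), MAP1LC3B (0.75), MAP1LC3A (0.59) and ATG2A (−0.80) still passed. WIPI1 (0.33), ATG4B (0.21) and GABARAP (0.11) did not, and ULK1 turned to −0.09. ATG3 (−0.46, adjusted permutation p = 0.0049) and ATG13 (−0.64, adjusted permutation p = 3.89e-05) were negatively related on this scale. In all, 22 members were negatively and 3 positively related at an adjusted p below 0.05, and r changed from above to below 0 for 15 members, among them BECN1 (0.29 to −0.69) and SQSTM1 (0.34 to −0.70). Of the 8 relations past the threshold with TMM scaling, only those of GABARAPL2, MAP1LC3B, MAP1LC3A and ATG2A therefore held on both scales.

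**Figure D4:**
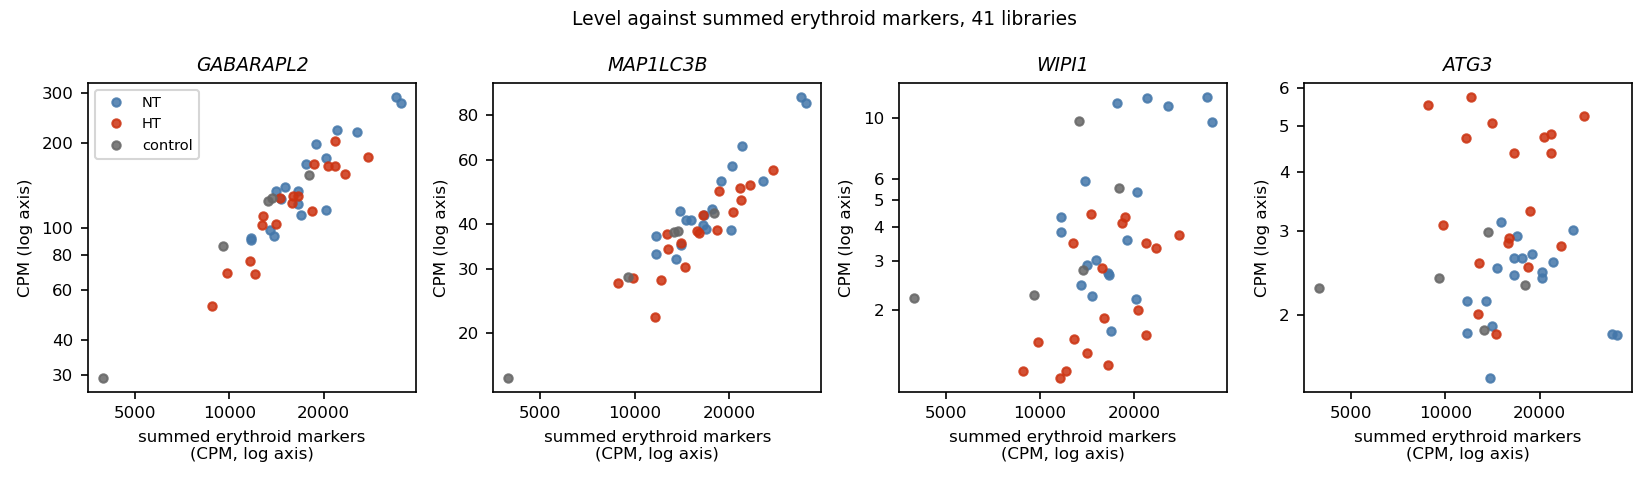
Level of GABARAPL2, MAP1LC3B, WIPI1 and ATG3 (CPM, log axis) against the summed level of 15 erythroid markers (CPM, log axis) in the 41 libraries, 1 point per animal (NT blue, HT red, never-torpor controls grey). GABARAPL2 and MAP1LC3B lie along a line from control replicate 5 to the 2 NT animals with the highest erythroid sums, whereas the HT animals with high ATG3 lie across the range of erythroid sums.

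**Figure D5:**
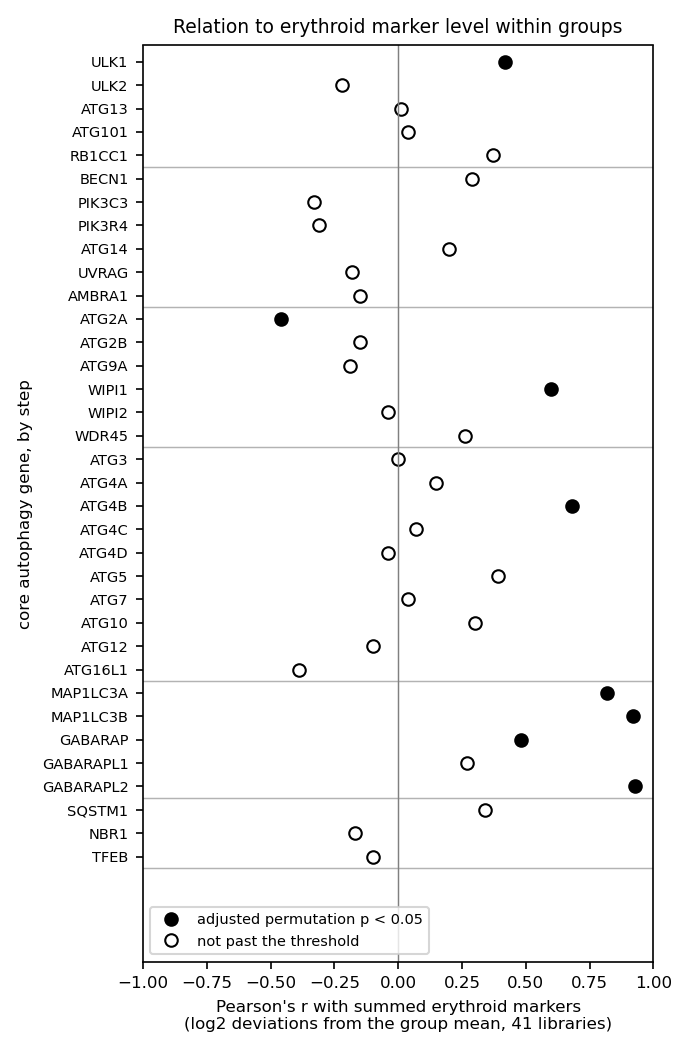
Pearson's r (horizontal axis) between each core autophagy gene (rows, by step) and the summed erythroid markers, from deviations from the group means in 41 libraries with TMM scaling. Filled points passed an adjusted permutation p of 0.05, and the 3 highest, GABARAPL2, MAP1LC3B and MAP1LC3A, are all ATG8 genes.

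Cell type markers moved with the torpor comparisons as well. The median log2 difference of the 15 erythroid markers was −0.29, −0.62, −0.38 and −0.70 at ZT01, ZT04, ZT07 and ZT16. Of them 13, 12, 13 and 15 were below 0. By edgeR's test 1 passed, SLC4A1 (the anion exchanger of the red cell), lower at ZT07 (−1.06 ± 0.21, adjusted p = 0.0135). Past the looser cut-offs were 5, 4 and 8 at ZT04, ZT07 and ZT16, all lower (7.55%, 13.4% and 4.56% of all genes). DESeq2 called 2, 2 and 4 at these times (4.66%, 15.4% and 0.776% of all genes). All 6 haemoglobin genes tested were below 0 at ZT16 (median −0.82), and DESeq2 called 3 of them. The erythroid sum was 8830 to 16500 CPM in HT and 11700 to 16500 CPM in NT animals at ZT07, and 9850 to 15800 CPM in HT and 16900 to 25600 CPM in NT animals at ZT16. At ZT16, where MAP1LC3B and GABARAPL2 were at their lowest relative to NT animals, the erythroid sums of the groups did not overlap. Of the 8 NK and cytotoxic markers tested, all were below 0 at ZT04 (median −0.98) and KLRD1 fell (−1.32 ± 0.25, adjusted p = 0.0454), and at ZT07 KLRD1 and NCR1 fell (median −0.55). Of the 8 neutrophil markers tested, MMP9 (1.46 ± 0.28) and LTF (2.09 ± 0.40) rose at ZT07 (adjusted p = 0.0118 and 0.012). In this list 7 markers were above 0 at ZT07, and 1 was below, at −1.53 and past the looser cut-offs. The list's summed level was 13.7 to 30.1 CPM in HT and 7.68 to 15.6 CPM in NT animals. No marker of T cells, B cells, monocytes or platelets passed edgeR's test at any time. At ZT07 4, 2, 2 and 2 of them had an unadjusted p below 0.05 (27.6% of all genes), and DESeq2 called 1, the T cell gene CD8B, which was named after its value was seen. In blood, fewer cells of a type and less RNA per cell cannot be told apart. The part of these shifts in the differences of the autophagy genes was not tested.

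Genes downstream of and around the core machinery passed edgeR's test at ZT07 alone. Of 14 genes for fusion with the lysosome, VPS41 and VAMP8 fell and VPS39 rose, where 10.4% of all genes passed. VPS41, a subunit of the HOPS tethering complex, was at 1.59 to 2.0 CPM in HT and 3.11 to 3.7 CPM in NT animals (−0.94 ± 0.16, adjusted p = 0.00778). VAMP8, the lysosomal SNARE, was at 8.5 to 15.4 CPM in HT and 20.3 to 23.8 CPM in NT animals (−0.89 ± 0.19, adjusted p = 0.0157). VPS39, another HOPS subunit, was at 7.48 to 8.06 CPM in HT and 4.28 to 6.35 CPM in NT animals (0.52 ± 0.15, adjusted p = 0.0448). None of these 3 pairs of ranges overlapped. At ZT07 every HT animal lay above every NT animal for 10.8% of all genes and below for 8.3%. VPS41 and VAMP8 passed whichever 1 animal was left out, and VPS39 was lost in 7 of the 8 fits that left out 1 animal. VAMP8 was lost in the fit of all 41 libraries (adjusted p = 0.261). Without both animals whose UTY counts go against their labels VPS41 (adjusted p = 0.0894), VAMP8 (0.137) and VPS39 (0.225) were all lost.

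Of 24 lysosome genes, NPC1, the cholesterol exporter, rose at ZT07 (0.62 ± 0.17, adjusted p = 0.0455), with 5.46 to 8.82 CPM in HT and 4.0 to 5.8 CPM in NT animals, ranges that overlap. It was lost in 6 of the 8 fits that left out 1 animal, and without both animals whose UTY counts go against their labels (adjusted p = 0.131). The median difference of the 24 was 0.03 at ZT07 and −0.02 at ZT04. None of 14 selective autophagy receptors, of 9 paralogs and partners of the members or of 5 MiT/TFE and FOXO factors passed edgeR's test at any time, and 3, 3 and 0 of them had an unadjusted p below 0.05 at ZT07, where 27.6% of all genes did. In these lists DESeq2 called MAP1LC3B2 and ATP6V1H at ZT04 (4.66% of all genes). At ZT07 it called WDR45B, NCOA4, PLEKHM1 and CTSL besides VPS41, VAMP8, VPS39 and NPC1 (15.4%). At ZT16 it called NCOA4, BNIP3L and FOXO3 (0.776%). The genes that DESeq2 alone called are named here after their values were seen. The genes with the lowest p of each list at ZT04 were MAP1LC3B2 (1.87 ± 0.55, adjusted p = 0.131), ATP6V1H (−0.75 ± 0.21, adjusted p = 0.122), SNAP29 (−0.43 ± 0.15), FOXO3 (−0.49 ± 0.25) and CALCOCO2 (−0.48 ± 0.30). MAP1LC3B2 was at 0.328 to 0.606 CPM in HT and 0.0211 to 0.211 CPM in NT animals at ZT04, from 1 to 30 counts per library. As for the ATG8 genes, reads may be divided between this symbol and MAP1LC3B.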

How the data were processed

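Blood RNA of 41 hamsters was sequenced by the authors in paired-end mode, and the reads were assembled de novo and counted per human gene symbol. The deposited values are raw counts, without stated normalization, and no column was left unmapped. Counts of several contigs under 1 symbol cannot be separated. The filter and TMM scaling of edgeR 4.0.16 (filterByExpr, minimum count 10, minimum total 15) were applied in R 4.3.3. HT was compared with NT at each time in a fit of these 2 groups with the quasi-likelihood test. Controls and time courses were tested in 1 fit of 41 libraries. None of 820 pairs of libraries was a duplicate (lowest chi-square 9.23 per degree of freedom). Scripts were tested on simulated data. Alternatives included DESeq2 1.42.0 and limma 3.58.1 voom. Named genes were members past the test, the lowest p of each step at ZT04, and members past the looser cut-offs. Among them, values of ULK2, GABARAP, GABARAPL2 and ATG7 by animal or range were added after they were seen. Members and lists were chosen with earlier results of these data known. Figures were drawn with matplotlib 3.10.9.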

Additional observations from a re-analysis of the deposited data

Results flagged for a closer look

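In 7 of 99 groups of animals tested for the 11 genes named by rule, 1 animal stood apart from the others by Dixon's criterion, which chance meets in about 1 group in 20. ATG2A stood high in HT ZT01 replicate 1 (16.9 CPM) and in HT ZT04 replicate 5 (18.4 CPM). The latter animal was also low for ATG3 (2.9 CPM). ATG12 was high in NT ZT01 replicate 2 (0.347 CPM, from 24 counts) and in NT ZT16 replicate 1 (0.195 CPM, from 8 counts), values that rest on few counts. NT ZT01 replicate 4, which had the second fewest counts outside haemoglobin, was low for ATG16L1 (1.19 CPM) and high for MAP1LC3B (89.6 CPM). The effect of torpor on ATG3 differed between the time points (adjusted p = 0.00757 by edgeR's test of the difference), with HT above NT in every animal at ZT04 and at ZT07.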

How the results depend on the processing

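Among the members past the test or the looser cut-offs, for which the alternatives were run, no fold change reversed. At ZT04 the count of 1 member called became 4 with DESeq2, 6 with all 41 libraries and 4 with 36 libraries and sex. It was 0 with sex as a covariate in the fit of 2 groups and 0 among males alone. Both of these rest on the same 2 HT and 4 NT males. When 1 animal was left out, the count at ZT04 was 0 to 1. At ZT07 the 6 calls became 2 to 7 when 1 animal was left out, and 0 without both animals whose UTY counts go against their labels. WIPI1 was lost there with all 41 libraries in the fit (adjusted p = 0.0552), and ATG16L1 with sex as a covariate (0.0541) and with voom (0.0518). At ZT16 DESeq2 called 2. The test of the torpor effect across time called 1 member, 3 with DESeq2, 2 with voom, 0 with 36 libraries and sex, and 1 to 2 when 1 animal was left out. Time among HT animals gave 6 calls and 3 to 8 when 1 animal was left out. The cause of these changes was not tested. Over all genes, 47 calls at ZT04 ranged from 0 to 675, 1119 calls at ZT07 from 37 to 1662, and 217 calls of the torpor effect from 65 to 530. Of the 8 members related to the erythroid markers, ULK1 turned from r = 0.42 to −0.09 under the other scaling, and r also turned from above to below 0 for 14 members outside these 8.

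Whether replicate numbers pair the animals cannot be told from these values. After the group means were removed, the correlation between animals of 1 number ran from −0.05 to 0.13 at ZT01 and −0.04 to 0.15 at ZT04. The correlation ran from −0.02 to 0.13 at ZT07 and −0.16 to 0.06 at ZT16. It was highest with the animal's own number in 2 of 5, 3 of 4, 2 of 4 and 1 of 4 pairs. With the replicate number as a block, 0 members were called at ZT04 and 7 at ZT07.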
